A study of Mus musculus with 16 samples.

Results

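The pore-forming and auxiliary subunits of voltage-gated sodium and calcium channels make up 32 of the 24060 gene rows in these RNA-seq tables. They were taken by symbol, as every row starting with Scn and a number, with Cacna or with Cacnb. Of these, 30 are described here: 9 sodium channel alpha subunits, 3 sodium channel beta subunits, 10 calcium channel alpha1 subunits, 4 alpha2delta subunits and 4 calcium channel beta subunits. The epithelial sodium channel (Scnn) and the calcium channel gamma family (Cacng) were not members. RNA came from the whole hippocampus and whole striatum of 4 adult mice at postnatal day 63, numbered 970, 971, 974 and 977. All carried Aldh1l1-creERT2 (hemi) and Ribotag (het), on an FVB background crossed to C57/Bl6N for 3 generations (about 88% C57/Bl6N). Male and female mice were used, and the sex of each animal is not in the labels. Each animal gave 4 libraries, which form 4 groups of 4: hippocampal input (Hip.input), hippocampal immunoprecipitate (Hip.IP), striatal input (Str.input) and striatal immunoprecipitate (Str.IP). Input is RNA of the cleared tissue lysate and therefore of all cells. IP is RNA bound to ribosomes that carry a hemagglutinin tag, which the Aldh1l1 promoter directs to astrocytes through an inducible Cre. No library without Cre or without the tag is among the groups, and the induction treatment is not in the labels.

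A voltage-gated sodium channel is built around a single large alpha subunit that forms the pore, and it carries the rising phase of the action potential in neurons. Its beta subunits are small membrane proteins with an immunoglobulin-like fold that modify gating and surface expression. Calcium channels have an alpha1 pore in the L-type (Cav1), P/Q-, N- and R-type (Cav2) or T-type (Cav3) class. The first 2 classes assemble with a cytoplasmic beta subunit and an extracellular alpha2delta subunit. Some alpha2delta subunits, not all, also bind gabapentin-type drugs. In brain these channels are best known from neurons, where they serve firing and transmitter release, while astrocytes are electrically non-excitable glia whose calcium signals come largely from other sources.

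Levels are FPKM (fragments per kilobase of transcript, relative to the mapped fragments of the library), divided by a trimmed-mean scaling factor for each library, which ran from 0.752 to 1.25. Since FPKM is per length, levels of different genes can be set side by side. Where 4 levels follow each other, they belong to animals 970, 971, 974 and 977 in that order. Estimated depth, in units of 1000000 counted fragments, was 9.01 to 12.18 in Hip.input, 18.86 to 22.58 in Hip.IP, 4.14 to 8.92 in Str.input and 13.96 to 21.69 in Str.IP, so IP libraries were deeper than input libraries. All 12 astrocyte markers were higher in IP than in input in both regions, with a median log2 difference of 4.04 in the hippocampus and 3.80 in the striatum. Aldh1l1 itself rose by 4.37 ± 0.20 (SE) and 4.28 ± 0.20 on the log2 scale (limma, adjusted p = 2.84e-11 and 6.78e-11). The summed level of 12 pan-neuronal markers was 172.3 to 252.0 in Hip.IP and 146.7 to 204.0 in Str.IP, against 3036 to 3112 and 1766 to 2099 in the inputs.

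Some libraries stood apart from others of their group. Str.input of animals 971 and 974, the shallowest libraries, both lay above 970 and 977 for 13 of 23 well measured members and both below for 5. In Hip.IP and in Str.IP, animals 974 and 977 both lay above 970 and 971 for 21 and 22 of 23 members. The pan-neuronal sum moved the same way in the IPs. It was 184.5, 172.3, 252.0 and 198.9 in Hip.IP, and 146.7, 162.8, 204.0 and 203.5 in Str.IP. Single markers were divided. In Str.IP, 974 and 977 both lay above 970 and 971 for Snap25 (31.4, 37.0, 62.3 and 68.9), Rbfox3, Syt1, Nefl, Nefm, Eno2 and Uchl1. They did not for Stmn2, Tubb3, Syp, Map2 (31.6, 34.5, 24.4 and 29.1) and Elavl4. In Hip.IP the markers without this order were Tubb3, Nefl, Syp, Map2 and Elavl4. The astrocyte marker sum moved the other way, at 11473, 12379, 6928 and 8164 in Str.IP. The orders of animals were counted over the members only, without the share over all genes, so they cannot be taken as particular to these genes. The part of these differences in the results was not tested, and counts without these libraries are given beside the counts they touch.

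**Figure D1:**
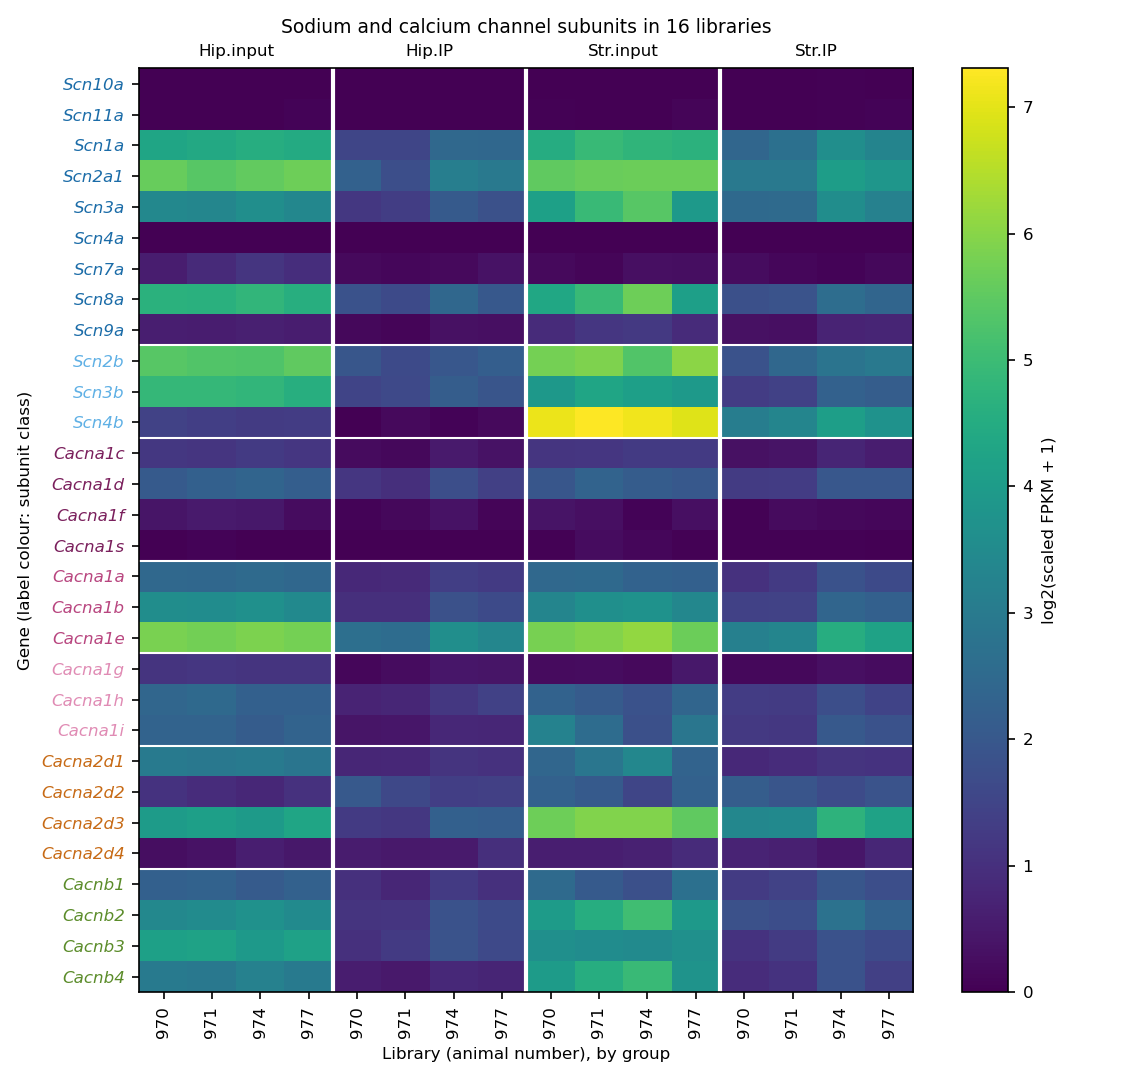
Level of 30 channel subunit genes in the 16 libraries, as log2(scaled FPKM + 1), with genes in rows grouped by subunit class and libraries in columns grouped by region and fraction. Most rows are lower in the IP columns, Scn4b is high in striatum, and within the IPs the columns of animals 974 and 977 are higher than those of 970 and 971.

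Of the 30 members, 23 had at least 1 FPKM in at least 4 libraries and were tested. Cacna1g reached that minimum in the 4 Hip.input libraries alone and Scn9a in the 4 Str.input libraries alone, so each was tested only because of the group in which it was high, and their differences from that group were favoured by the filter. Cacna1c reached it in the 8 input libraries alone, so its falls in IP were favoured by the filter too. The other 7 were Scn4a, Scn7a, Scn10a, Scn11a, Cacna1f, Cacna1s and Cacna2d4. Scn4a, the skeletal muscle sodium channel, was listed at 0 in 15 of 16 libraries, and Scn10a and Scn11a, known from sensory neurons, at 0 in 13 and 11. Cacna1s, the skeletal muscle L-type pore, did not exceed 0.182. Scn7a, a sodium-sensing relative of the channels, reached 0.512 to 1.17 in Hip.input and 0.066 to 0.235 in Str.input. Cacna1f, the retinal L-type pore, reached at most 0.428. Cacna2d4, another retinal subunit, stood at 0.404 to 0.979 in Hip.IP against 0.197 to 0.525 in Hip.input, ranges that overlap.

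In whole tissue, the genes of a class held unequal shares of its summed level. Scn2a1 (Scn2a in GENCODE), the alpha subunit of immature and unmyelinated axons, held 45.3% ± 2.86 (SD, n = 4) of the summed level of the described alpha subunits in Hip.input. It was followed by Scn8a, which drives firing at the axon initial segment and nodes, with 23.9% ± 1.55. Scn1a, known from fast-spiking interneurons, held 19.9% ± 1.15 and Scn3a, known from embryonic brain, 9.6% ± 0.63. Cacna1e, the R-type pore, held 64.9% ± 0.98 of the summed alpha1 level in Hip.input and 66.7% ± 4.04 in Str.input. Its share was 53.9% ± 0.998 in Hip.IP and 54.9% ± 2.35 in Str.IP, below all input libraries of the same region. Scn8a made up 12.6% ± 0.83 of the alpha subunit sum in Str.IP, against 21.4% ± 6.19 in Str.input and 23.2% ± 4.29 in Hip.IP.

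**Figure D2:**
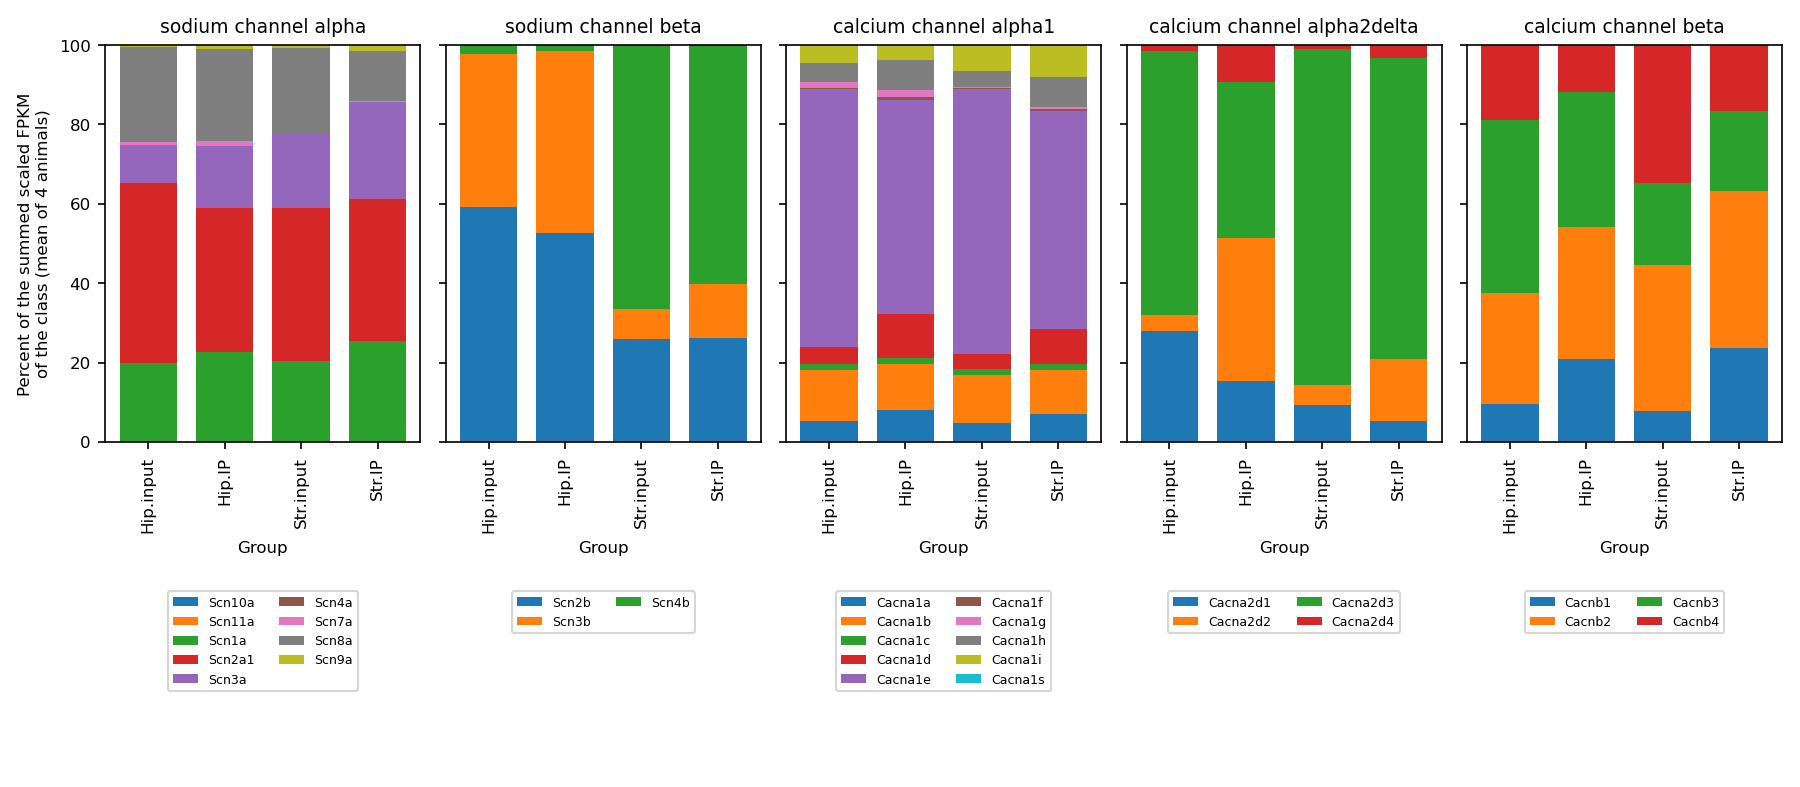
Stacked bars of the share of each gene in the summed scaled FPKM of the described genes of its class (percent, mean of 4 animals) in the 4 groups, with 1 panel per class. Scn4b takes 66.5% of the sodium channel beta sum in Str.input and 60.3% in Str.IP but 2.21% in Hip.input, and Cacna2d2 takes 36.1% of the alpha2delta sum in Hip.IP against 3.96% in Hip.input.

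The first comparison asks which subunit RNAs were higher or lower on astrocyte ribosomes than in the tissue around them. Nearly all were lower. In the hippocampus 22 of the 23 tested members were lower in IP than in input and 1, Cacna2d2, was higher, at adjusted p under 0.05 by limma over all 13470 genes tested. Of all genes 65.6% were called, 34.6% lower and 31.0% higher. The members' median log2 difference was -2.01, against -0.08 over all genes. In the striatum 21 members were lower, none was higher, and Cacna2d2 and Cacna1g had no call. The background there was 65.2% of genes called, 32.7% lower and 32.5% higher, and the medians were -1.73 for members and -0.02 for all genes. In the hippocampus the 4 IP libraries did not overlap the 4 inputs for any of the 23, and in the striatum they did not overlap for 18, the others being Cacna1d, Cacna1g, Cacna1i, Cacna2d2 and Cacnb1. Over all genes tested, 69.8% did not overlap in the hippocampus and 52.3% in the striatum. Log2 differences are on the log2(scaled FPKM + 1) scale, which understates changes of low genes. In bulk RNA of this kind, fewer cells of a type and less RNA per cell cannot be told apart. Without the IPs of animals 974 and 977 the counts of lower members were still 22 and 21. Depth differed between IP and input throughout, and its part was not tested.

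**Figure D3:**
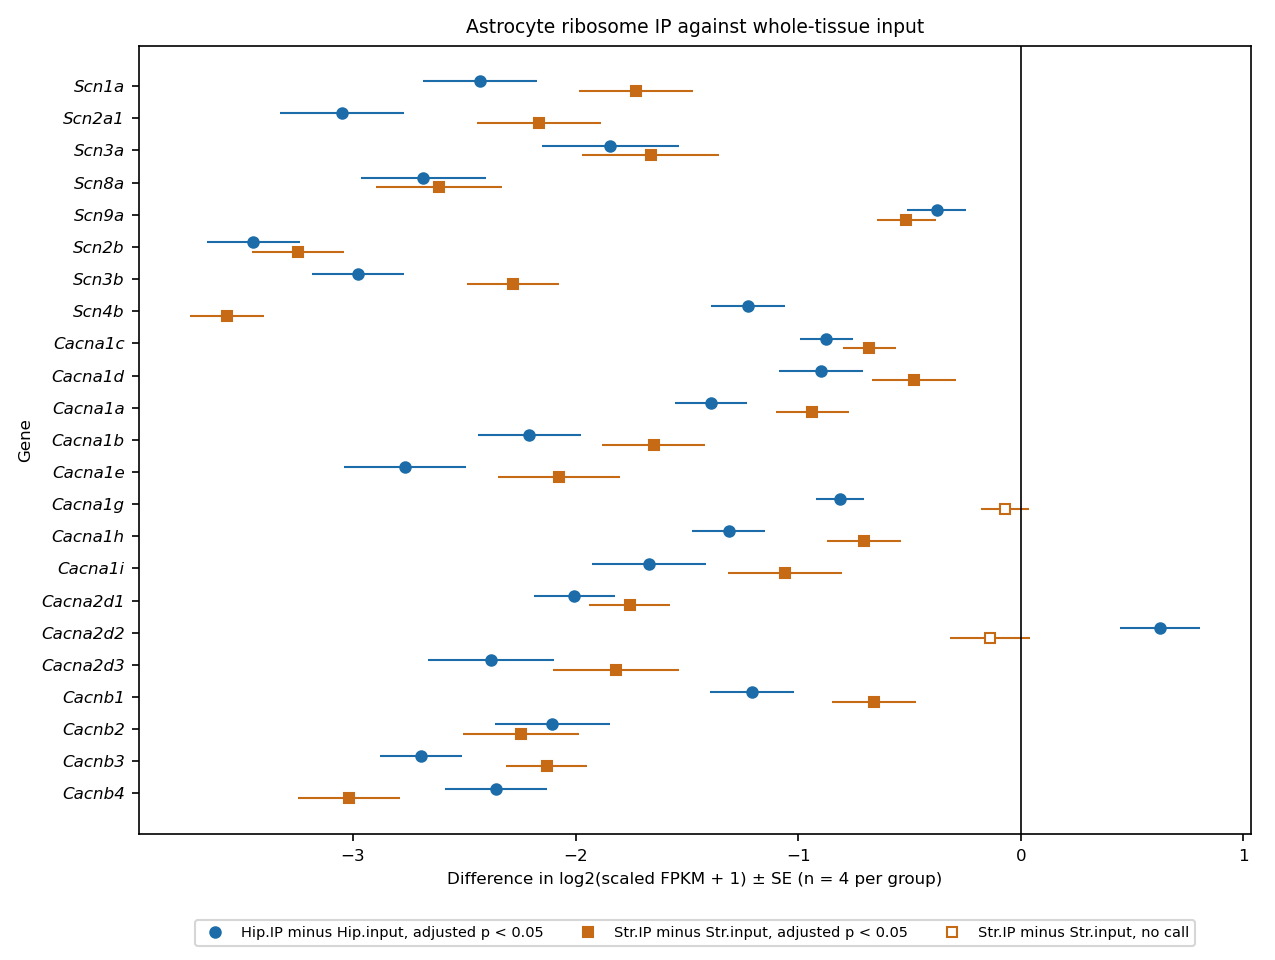
Difference between IP and input in log2(scaled FPKM + 1), with SE, for the 23 tested members in hippocampus (circles) and striatum (squares), n = 4 libraries per group, where open symbols have adjusted p of 0.05 or more. The symbols lie left of 0 except that of Cacna2d2 in hippocampus at 0.63.

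Among the sodium channel alpha subunits, all 5 tested members were lower in IP in both regions. Scn2a1 stood at 48.1, 41.8, 46.2 and 50.8 in Hip.input and at 3.79, 2.37, 7.73 and 6.76 in Hip.IP. In striatum its level was 45.4, 48.5, 49.4 and 49.5 in input and 6.82, 6.73, 15.9 and 13.2 in IP. Input levels of the regions lay close together, and each IP library was far below each input. The log2 difference was -3.05 ± 0.28 in hippocampus (adjusted p = 6.17e-08) and -2.16 ± 0.28 in striatum (adjusted p = 3.94e-06). Scn8a was 24.2, 24.1, 27.2 and 22.9 in Hip.input and 2.60, 2.15, 4.48 and 3.04 in Hip.IP. Its striatal input was uneven, at 19.5, 30.1, 50.5 and 16.4, while Str.IP held 2.41, 2.69, 5.16 and 4.26. The groups did not overlap in either region, and the differences were -2.68 ± 0.28 (adjusted p = 3.41e-07) and -2.61 ± 0.28 (adjusted p = 5.50e-07).

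Scn1a stood at 18.5, 20.1, 22.3 and 21.0 in Hip.input and 1.88, 1.90, 4.57 and 4.41 in Hip.IP. In striatum it was 22.1, 29.3, 26.4 and 24.8 in input and 4.28, 5.44, 11.3 and 8.89 in IP. The 2 higher IP libraries of each region were those of animals 974 and 977, and all IPs stayed below all inputs. Scn3a was 9.69, 9.32, 11.3 and 9.33 in Hip.input and 1.26, 1.51, 3.22 and 2.53 in Hip.IP. Its Str.input levels were 16.9, 30.1, 41.2 and 14.3, and those of Str.IP 4.70, 4.71, 11 and 8.2. Here the 2 high striatal inputs were those of animals 971 and 974. The IP difference was -2.43 ± 0.26 and -1.73 ± 0.26 for Scn1a, and -1.84 ± 0.31 and -1.66 ± 0.31 for Scn3a, in hippocampus and striatum. Scn9a, better known from pain fibres, was near the filter, at 0.487 to 0.567 in Hip.input and 0.851 to 1.34 in Str.input. It passed the filter through Str.input alone, which favours a striatal fall. Its IP differences were small, -0.38 ± 0.13 for hippocampus (adjusted p = 0.0192) and -0.51 ± 0.13 for striatum (adjusted p = 0.00279), and the hippocampal call was lost under quantile normalization (-0.18, adjusted p = 0.25).

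All 3 sodium channel beta subunits described were lower in IP in both regions. Scn2b, which is disulfide-linked to the alpha subunit, stood at 41.2, 38.7, 38.5 and 45.3 in Hip.input and 2.84, 2.11, 2.96 and 3.57 in Hip.IP. Its Str.input levels were 53.6, 58.4, 39.4 and 64.5 and its Str.IP levels 2.58, 4.42, 6.03 and 6.74. It fell by 3.45 ± 0.21 in hippocampus (adjusted p = 5.01e-10) and by 3.25 ± 0.21 in striatum (adjusted p = 1.39e-09). Scn3b, a non-covalently bound subunit, was 27.9, 28.1, 26.9 and 23.1 in Hip.input and 1.83, 2.07, 3.43 and 2.83 in Hip.IP. In the striatum it was 14.0, 18.7, 16.6 and 14.1 in input and 1.46, 1.66, 3.85 and 3.45 in IP. All IPs lay far below the inputs, and the differences were -2.98 ± 0.21 (adjusted p = 2.53e-09) and -2.28 ± 0.21 (adjusted p = 7.14e-08).

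Scn4b, whose protein is associated with fast, resurgent sodium current, separated the regions more than any other member. Str.input held 136.4, 157.3, 139.9 and 121.8, and Str.IP 7.60, 8.93, 16.1 and 12.1. In hippocampus it was 1.69, 1.55, 1.39 and 1.47 in input and 0, 0.134, 0.0426 and 0.139 in IP. The lowest Str.IP library was thus above every Hip.input library, and no group overlapped another. Its IP difference was -3.57 ± 0.17 in striatum (adjusted p = 7.02e-11) and -1.23 ± 0.17 in hippocampus (adjusted p = 6.45e-06).

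Scn2b and Scn4b are neighbours on chromosome 9 (GENCODE vM21, GRCm38), 8.3 kb apart on the plus strand, Scn2b at chr9:45117782-45130070 and Scn4b at chr9:45138395-45154152. The nearest pair did not share its regional pattern, since Scn2b differed by 0.37 ± 0.21 between the inputs (adjusted p = 0.173) and Scn4b by 5.79 ± 0.17 (adjusted p = 2.13e-12). Scn3a, Scn2a1, Scn1a, Scn9a and Scn7a lie in that order on chromosome 2, with gaps of 53.1, 503.3, 39.2 and 38.5 kb. Scn10a and Scn11a lie 34.4 kb apart on chromosome 9.

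The calcium channel pores were lower in IP as well, except for Cacna1g in striatum, which had no call. Cacna1e was 56.0, 52.9, 57.8 and 54.0 in Hip.input and 5.31, 4.96, 11.1 and 9.20 in Hip.IP. Striatal levels were 55.1, 61.2, 69.0 and 49.5 in input and 8.08, 9.06, 22.3 and 17.4 in IP. No IP library reached any input, and the differences were -2.77 ± 0.27 (adjusted p = 1.65e-07) and -2.07 ± 0.27 (adjusted p = 5.39e-06). Cacna1b, the N-type pore of synaptic terminals, differed by -2.21 ± 0.23 and -1.65 ± 0.23. Cacna1a, the P/Q-type pore, differed by -1.39 ± 0.16 and -0.94 ± 0.16. The L-type pores had input means of 3.65 (Cacna1d) and 1.27 (Cacna1c) in hippocampus, and their differences there were -0.90 ± 0.19 and -0.87 ± 0.12. In striatum Cacna1c differed by -0.68 ± 0.12 and Cacna1d by -0.48 ± 0.19, the latter the weakest call (adjusted p = 0.0359). Cacna1c passed the filter through the inputs alone, which favours its falls in both regions. The Cacna1d call was lost in 5 alternatives, among them without animal 970 (-0.42, adjusted p = 0.13), without animal 971 (-0.30, adjusted p = 0.249) and without Str.input of 971 and 974 (-0.36, adjusted p = 0.207).

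Of the T-type pores, Cacna1h was 3.72 to 4.62 in Hip.input and 0.665 to 1.64 in Hip.IP, with 2.60 to 4.18 and 1.39 to 2.37 in striatum. Its differences were -1.31 ± 0.17 and -0.70 ± 0.17. Cacna1i was 3.97, 4.02, 3.40 and 4.05 in Hip.input and 0.334, 0.367, 0.741 and 0.711 in Hip.IP. Its Str.input levels spread from 2.44 (animal 974) over 5.04 and 6.31 to 8.51 (animal 970), and Str.IP held 1.31, 1.26, 3.10 and 2.59. In striatum the ranges overlapped because of animal 974, where IP exceeded input, and the differences were -1.67 ± 0.26 and -1.06 ± 0.26. Cacna1g, the T-type pore of thalamic bursting, was 1.15, 1.23, 1.14 and 1.14 in Hip.input and 0.10, 0.175, 0.349 and 0.324 in Hip.IP. In striatum it was low in both fractions, at 0.170, 0.183, 0.144 and 0.379 in input and 0.108, 0.111, 0.228 and 0.192 in IP. The hippocampal groups were far apart, as the filter favoured for this gene, with a difference of -0.81 ± 0.11 (adjusted p = 4.72e-06), and the striatal ones overlapped, with -0.07 ± 0.11 (adjusted p = 0.585).

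Among the alpha2delta subunits, Cacna2d2 went against the other members. Hip.IP held 3.12, 2.01, 1.57 and 1.60, and Hip.input 1.09, 0.898, 0.769 and 1.07. Every Hip.IP library lay above every Hip.input library, and the difference was 0.63 ± 0.18 (adjusted p = 0.00586). In striatum the level was 3.79, 3.19, 1.91 and 3.84 in input and 3.43, 2.77, 2.18 and 2.64 in IP. These ranges overlapped, and the difference was -0.14 ± 0.18 (adjusted p = 0.515). In both regions Cacna2d2 was also the member whose IP level was lower in animals 974 and 977 than in 970 and 971. Without the scaling factor the hippocampal call was lost (0.28, adjusted p = 0.189). Leaving the factor out moves the median of all genes in that comparison from -0.08 to -0.51, and relative to the median the difference of Cacna2d2 was 0.79 without the factor and 0.71 with it. Some non-neuronal marker sums moved with it. The sum of 12 astrocyte markers was 14768, 14124, 11017 and 11923 in Hip.IP. That of 7 oligodendrocyte precursor markers was 92.5, 89.3, 67.0 and 65.5 in Hip.IP against 46.0 to 49.5 in Hip.input, although 5 of the 7 were called lower in Hip.IP and 1 higher. Olig1 made up most of this sum, at 87.1, 84.0, 59.8 and 59.5 in Hip.IP. No other marker of the 7 had both 974 and 977 below 970 and 971, and Pdgfra had 0.161, 0.256, 0.511 and 0.521. What these sums contribute to the result was not tested.

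In the main fit Cacna2d3 separated the regions in both fractions, while Cacna2d1 was not called between them in either. Without animal 974, Cacna2d1 was called lower in Str.input than in Hip.input (-0.46, limma adjusted p = 0.0427). The promoters of Cacna2d3 and Cacna2d1 are shown because of these patterns and because neither overlaps an annotated exon. Each is the 250 bases before the RefSeq start (GRCm38.p6), 5′ to 3′ on the gene's strand, with GC boxes (GGGCGG or its reverse complement CCGCCC) in capitals. Cacna2d3 lies on the minus strand (chr14:29721865-29722114) and Cacna2d1 on the plus strand (chr5:15934441-15934690).
Cacna2d3: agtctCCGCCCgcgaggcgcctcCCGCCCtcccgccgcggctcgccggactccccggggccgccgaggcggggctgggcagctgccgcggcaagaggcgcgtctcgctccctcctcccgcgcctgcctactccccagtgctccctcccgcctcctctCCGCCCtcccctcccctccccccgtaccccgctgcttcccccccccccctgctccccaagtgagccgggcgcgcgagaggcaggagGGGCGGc
Cacna2d1: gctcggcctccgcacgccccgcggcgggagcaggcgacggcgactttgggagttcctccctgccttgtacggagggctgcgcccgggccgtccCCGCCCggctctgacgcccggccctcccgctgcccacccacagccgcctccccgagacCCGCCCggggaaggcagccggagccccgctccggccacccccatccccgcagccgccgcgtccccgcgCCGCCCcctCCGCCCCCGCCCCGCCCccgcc
Cacna2d3 has 4 GC boxes and a GC content of 80.0%, and Cacna2d1 has 6 and 82.4%. Any link of these features to the regional patterns was not tested. Over the 34 starts of the 24 member genes in the RefSeq table, 38.2% held a GC box on either strand, against 32.7% of all 32851 starts. A TATA box (TATAAA) was in 5.9% of member starts and 12.4% of all, and a CCAAT box in 23.5% and 33.8%. These matches are descriptions of the letters in the windows.

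Cacna2d3 was 15.1, 16.3, 14.8 and 18.6 in Hip.input and 1.37, 1.29, 3.74 and 3.54 in Hip.IP. In striatum it was 51.2, 59.1, 60.0 and 44.7 in input and 9.50, 10.1, 25.3 and 17.4 in IP. Striatal levels exceeded hippocampal levels in each fraction without overlap, and each IP group lay below the input of its region. The IP differences were -2.38 ± 0.28 (adjusted p = 1.45e-06) and -1.82 ± 0.28 (adjusted p = 3.12e-05). Cacna2d1, the high-affinity gabapentin receptor, was 6.23 to 7.04 in Hip.input, 4.00 to 9.42 in Str.input, 0.738 to 1.16 in Hip.IP and 0.806 to 1.15 in Str.IP. Its differences were -2.01 ± 0.18 and -1.76 ± 0.18. The makeup of the class changed with these: Cacna2d2 was 3.96% ± 0.57 of the alpha2delta sum in Hip.input and 36.1% ± 16.3 in Hip.IP, and 5.2% ± 2.0 and 15.7% ± 7.30 in striatum.

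All 4 calcium channel beta subunits were lower in IP in both regions. Cacnb3, the main partner of N-type channels, was 16.9, 17.6, 14.6 and 17.1 in Hip.input and 1.03, 1.36, 2.65 and 2.08 in Hip.IP. Striatal levels were 11.5, 10.7, 10.3 and 11.6 in input and 1.10, 1.40, 2.61 and 2.10 in IP. The IPs of the regions lay on the same range although the inputs did not overlap, and the differences were -2.69 ± 0.18 (adjusted p = 1.91e-09) and -2.13 ± 0.18 (adjusted p = 3.71e-08). Cacnb4, mutated in the lethargic mouse, was 7.08, 6.56, 8.18 and 6.84 in Hip.input and 0.498, 0.402, 0.793 and 0.700 in Hip.IP. In striatum it was 15.2, 22.5, 29.7 and 12.6 in input and 0.886, 1.08, 2.59 and 1.63 in IP. It had the strongest fall of this class in striatum, -3.02 ± 0.23 (adjusted p = 9.49e-09), and -2.36 ± 0.23 in hippocampus (adjusted p = 1.44e-07). Of its exon bases 16% are shared with A430018G15Rik on the opposite strand, and the library kit named in the labels does not mark strand, so reads of the 2 genes cannot be told apart there.

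Cacnb2, which is also the main cardiac beta subunit, was 9.71, 10.4, 11.9 and 10.3 in Hip.input and 1.14, 1.17, 2.58 and 2.13 in Hip.IP. Its striatal levels were 15.2, 22.6, 32.3 and 14.3 in input and 2.53, 2.33, 5.74 and 3.87 in IP. The high striatal inputs were again those of animals 971 and 974, and the differences were -2.10 ± 0.26 (adjusted p = 2.30e-06) and -2.24 ± 0.26 (adjusted p = 1.25e-06). Cacnb1, the beta subunit of skeletal muscle with brain splice forms, had the smallest differences of the class, -1.21 ± 0.19 and -0.66 ± 0.19, with 2.44 to 5.51 in Str.input and 1.43 to 2.84 in Str.IP. Leaving out animal 970 ended the striatal call of Cacnb1 (-0.47, adjusted p = 0.0946). Cacnb1 made up 9.67% ± 0.74 of the class sum in Hip.input and 20.8% ± 4.56 in Hip.IP, while Cacnb4 made up 18.9% ± 1.94 and 11.8% ± 1.26.

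How much of each tissue level was found in the IP was expressed as a percent of the same animal's input, for members with an input of at least 1. Over 21 members the median was 9.48, 9.38, 21.5 and 19.0% in hippocampus and 18.5, 15, 32.3 and 35.8% in striatum. Pan-neuronal markers had medians of 6.15, 5.43, 11.6 and 7.64% in hippocampus and 9.34, 12.8, 31.5 and 13.9% in striatum. The members' median was thus above that of the pan-neuronal markers in each animal and region, narrowly so in the striatum of animal 974. As means over animals these were 14.8% ± 6.33 against 7.70% ± 2.76 (SD, n = 4), and 25.4% ± 10.2 against 16.9% ± 9.94. Without the IPs of animals 974 and 977 the members' medians were 9.43% and 16.8% and those of the neuronal markers 5.79% and 11.1%. Astrocyte markers had 1781% and 1491%. In hippocampus, oligodendrocyte precursor (21.6%) and endothelial markers (16.1%) were above the members, and interneuron (3.93%) and microglia markers (9.08%) below. In striatum, striatal projection neuron markers had 10.6% ± 3.70 and interneuron markers 6.13%, both below the members. Oligodendrocyte (19.1%), endothelial (18.4%), oligodendrocyte precursor (18.0%) and microglia markers (11.1%) were below the members too. Hippocampal principal neuron markers had 24.8% ± 19.3 there, from uneven medians of 10.4, 19.9, 53.1 and 15.6%.

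Single members spread widely in this measure but stayed mostly within the range of single neuronal markers. In hippocampus the mean percent ran from 5.29 (Scn4b) to 41.7 (Cacna1d), and all 21 members lay between the lowest neuronal marker, Snap25 at 3.75, and the highest, Map2 at 51.0. Map2 alone set that upper end, as the next marker was Elavl4 at 15.5. The median of these means was 8.19 for the markers and 15.2 for the members. In striatum the mean percent ran from 8.07 (Cacnb4) to 90.0 (Cacna2d2), the 1 member above the highest neuronal marker, Tubb3 at 88.6. Tubb3 was uneven (SD 60.5), and the medians there were 15.9 for the markers and 26.8 for the members. The 3 highest hippocampal members were Cacna1d (41.7% ± 12.8), Cacnb1 (28.8% ± 9.76) and Cacna1h (27.5% ± 14.1). Except for Cacna2d2, which had no hippocampal value because its input was below 1, the same 3 led in striatum, with 67.1% ± 29.1, 61.1% ± 38.0 and 53.5% ± 25.1. At the low end Scn2b had 6.98% ± 1.11 and 9.53% ± 4.49, and Cacnb4 8.27% ± 2.0 and 8.07% ± 3.65.

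**Figure D4:**
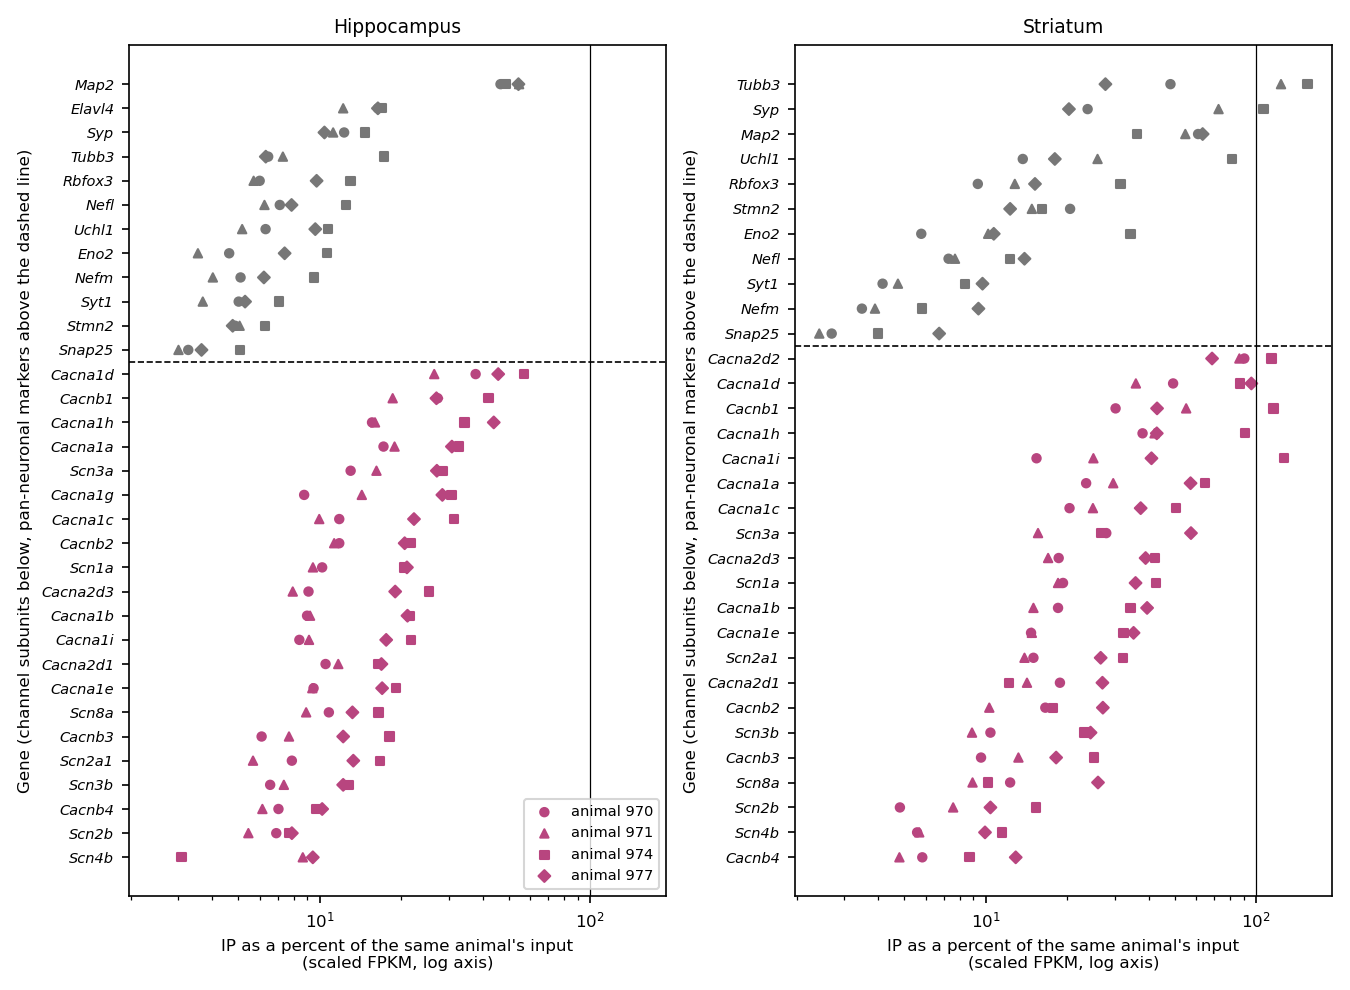
IP level as a percent of the same animal's input on a log axis, for channel subunits (coloured, below the dashed line) and pan-neuronal markers (grey, above it), with 1 symbol shape per animal and hippocampus left, striatum right. Scn4b of animal 970 in hippocampus is at 0 and not drawn, and animals 974 and 977 lie to the right of 970 and 971 for most genes.

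The second comparison asks which subunits differed between the regions, in IP and in input. In IP, 6 of 23 members were higher in striatum and none was lower, against 12.6% of all genes called, 7.36% higher and 5.27% lower. At an unadjusted p under 0.05 the fit gave no lower member either, the lowest difference being -0.09 ± 0.11 (Cacna1g, adjusted p = 0.681). The 6 were Scn4b (3.45 ± 0.17, adjusted p = 1.40e-09), Cacna2d3 (2.23 ± 0.28, adjusted p = 4.76e-05), Scn3a (1.35 ± 0.31, adjusted p = 0.00729), Scn1a (1.01 ± 0.26, adjusted p = 0.0148), Cacna1i (0.96 ± 0.26, adjusted p = 0.0207) and Scn2a1 (0.93 ± 0.28, adjusted p = 0.0360). The Scn2a1 call was lost without the scaling factor (adjusted p = 0.0563), with only the IP groups in the fit (adjusted p = 0.125) and with no filter (adjusted p = 0.0626). That of Cacna1i was lost without the scaling factor (adjusted p = 0.0583) and that of Scn1a with only the IP groups (adjusted p = 0.0721). With the animal as a block in the fit, Cacna1e (0.77, adjusted p = 0.0264), Cacnb2 (0.72, adjusted p = 0.0163) and Cacnb4 (0.63, adjusted p = 0.0342) were called higher too, which made 9.

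Marker lists also differed between the IPs of the regions. The summed level of 9 striatal projection neuron markers was 187.9 to 317.3 in Str.IP, 72.9 to 86.6 in Hip.IP, 1881 to 2166 in Str.input and 30.1 to 33.7 in Hip.input. Of those 9, 7 were higher in Str.IP than in Hip.IP and 1 lower, with a median log2 difference of 3.00. The 12 pan-neuronal markers had a median of 0.08 in the same comparison and the members 0.51. Of 8 interneuron markers 3 were higher in Str.IP, and the summed level of all 8 was 23.6, 27.0, 55.3 and 53.6 there against 12.2 to 22.3 in Hip.IP. Within this sum Gad1 was 7.88 to 20.7 in Str.IP against 2.72 to 4.33 in Hip.IP, and Gad2 10.3 to 23.6 against 2.06 to 4.1. The means of Npy, Lhx6 and Slc32a1 were higher in Str.IP too. Those of Sst (5.55 against 9.15), Pvalb and Vip were lower, without a call, so the sum does not stand for each interneuron marker. Of 10 oligodendrocyte markers 6 were higher, with sums of 93.9 to 144.5 against 87.0 to 93.8. Of 10 hippocampal principal neuron markers 6 were lower in Str.IP and none higher, with sums of 53.0 to 62.3 against 81.2 to 106.0. Of 12 astrocyte markers 6 were lower and none higher, with sums of 6928 to 12379 against 11017 to 14768. The part of RNA of these cell types in the regional IP differences was not tested. The count of 6 depended on single animals. It was 3 without animal 971 and 2 without animal 977, with 21 members tested in each case, and Scn4b and Cacna2d3 were called in both. The Scn2a1 call was lost when any 1 animal was left out (adjusted p = 0.06 to 0.147), with differences of 0.84 to 1.01. Without animal 971 and without animal 977, Scn1a had 0.96 and 1.07, and Cacna1i 1.04 and 0.91, so the sizes stayed close to those with all animals. Without the IPs of animals 974 and 977 there were 5, with Cacna1i (0.77, adjusted p = 0.342) and Scn3a (1.28, adjusted p = 0.0944) no longer called and Cacna1e (0.65, adjusted p = 0.0305) called.

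In input, 7 of 23 members were higher in striatum and 3 lower, against 36.1% of all genes called, 18.1% higher and 18.0% lower. Scn4b (5.79 ± 0.17), Cacna2d3 (1.67 ± 0.28, adjusted p = 2.40e-04) and Cacnb4 (1.29 ± 0.23, adjusted p = 3.75e-04) led the higher ones, followed by Scn3a (1.17 ± 0.31), Cacna2d2 (1.07 ± 0.18), Cacnb2 (0.86 ± 0.26) and Scn9a (0.44 ± 0.13). Lower in striatum were Cacna1g, which was tested only through Hip.input (-0.83 ± 0.11, adjusted p = 1.46e-05), Scn3b (-0.71 ± 0.21, adjusted p = 0.0139) and Cacnb3 (-0.55 ± 0.18, adjusted p = 0.0289). The members' median was 0.08 and that of all genes -0.01. For all 10 the libraries of the regions did not overlap, as for 33.5% of all genes tested. With a pseudocount of 0.1 the calls of Scn9a (0.90, adjusted p = 0.0631) and Cacnb3 (-0.58, adjusted p = 0.099) were lost. Without Str.input of animals 971 and 974, Scn3a (0.54, adjusted p = 0.23), Cacnb2 (0.38, adjusted p = 0.354) and Cacnb3 (-0.55, adjusted p = 0.11) lost their calls, while Cacna2d1 (-0.65, adjusted p = 0.00157) and Cacna1i (0.72, adjusted p = 0.0359) gained one, and Scn9a did not pass the filter. Without animal 971 altogether, 4 were higher and 0 lower, with Scn3b at -0.76 (adjusted p = 0.0514), and without animal 970 or animal 977 there was 1 lower member. Cacna1g did not pass the filter in these 3 fits.

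Set side by side, Scn4b, Cacna2d3 and Scn3a were called higher in striatum in both fractions. The fractions share no library, but they come from the same animals and were tested in the same fit. For Scn3a the IP call was lost without animal 977 (1.35, adjusted p = 0.0524). It was also lost without the IPs of animals 974 and 977 (1.28, adjusted p = 0.0944). The Scn3a input call was lost without animal 971 (1.03, adjusted p = 0.0829). It was also lost without Str.input of animals 971 and 974 (0.54, adjusted p = 0.23). Cacna2d2 was called in input (adjusted p = 2.21e-04) and had 0.31 ± 0.18 in IP (adjusted p = 0.323). Scn2a1, Scn1a and Cacna1i were called in IP and had 0.05 ± 0.28, 0.31 ± 0.26 and 0.35 ± 0.26 in input (adjusted p = 0.912, 0.364 and 0.307). The difference between the fractions was not called for any of these 3 (interaction adjusted p = 0.149, 0.216 and 0.284). Among the members lower in striatal input, Scn3b had -0.01 ± 0.21 in IP (adjusted p = 0.983), Cacnb3 0.02 ± 0.18 (adjusted p = 0.971) and Cacna1g -0.09 ± 0.11 (adjusted p = 0.681).

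**Figure D5:**
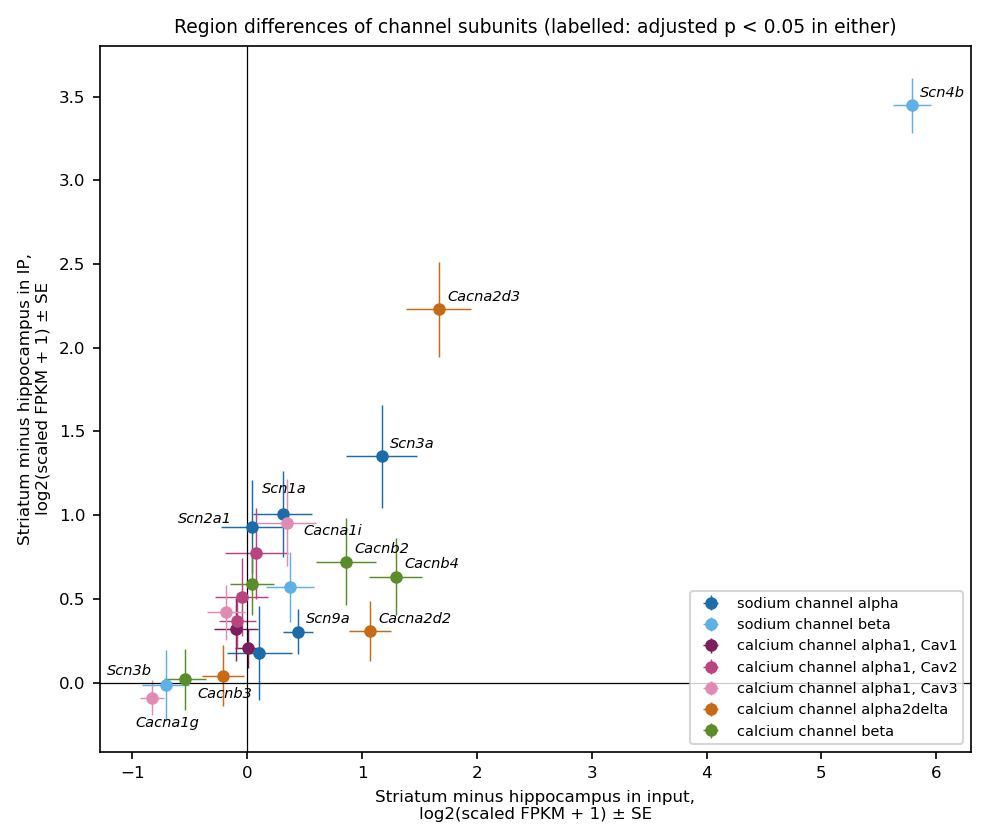
Striatum minus hippocampus in input (x axis) and in IP (y axis), both as log2(scaled FPKM + 1) with SE, for the 23 tested members coloured by class, where names mark members called in either. Scn4b lies far out at 5.79 and 3.45, Cacna2d3 follows, and no member lies clearly below 0 in IP.

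Whether the IP difference itself differed between regions was tested as an interaction. It was called for 2 of 23 members, 1 higher and 1 lower, against 13.8% of all genes called, 7.02% higher and 6.77% lower. The fall in IP was smaller in striatum for Cacna1g (difference of differences 0.74 ± 0.15, adjusted p = 0.00334). Cacna1g was tested only because its Hip.input levels passed the filter, which favours this value. Its input was lower in striatum, while the IPs of the regions overlapped. For Scn4b the value was -2.34 ± 0.23 (adjusted p = 6.43e-06), but with a pseudocount of 0.1 in place of 1 it was -0.41 (adjusted p = 0.511). As a percent of input, Scn4b had 5.29 ± 4.52 in hippocampus and 8.17 ± 3.01 in striatum. Cacna2d2 had -0.76 ± 0.25 (adjusted p = 0.0568), and with the animal as a block adjusted p = 0.0139. The members' median was 0.46, that of the 12 pan-neuronal markers 0.79, with 5 of them called higher, and that of all genes 0.04. Without the IPs of animals 974 and 977, Scn1a (0.71, adjusted p = 0.0434) and Scn2a1 (0.91, adjusted p = 0.0154) were called higher beside Cacna1g. With any 1 animal left out Cacna1g did not pass the filter.

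Genes whose products work with these channels were described as lists. Of 10 FGF homologous factors and axon initial segment anchors, 6 were lower in IP in each region, and 2 were higher in hippocampus and 1 in striatum. Nrcam, Cacng7 and Gem are singled out here after their values were seen. Nrcam, a cell adhesion molecule of the node of Ranvier, rose by 1.34 ± 0.18 in hippocampus and 1.52 ± 0.18 in striatum (adjusted p = 5.35e-06 and 1.42e-06). Fgf14, an intracellular FGF that binds sodium channels, fell by 2.15 ± 0.21 and 2.34 ± 0.21. Of 6 measured Cacng genes, 5 were lower in hippocampal and 4 in striatal IP, and none was called higher. Cacng2 (stargazin), an AMPA receptor auxiliary protein, fell by 3.46 ± 0.20 and 3.04 ± 0.20. Cacng7, a relative of it, kept the highest IP levels of the family, 69.0 to 97.5 in Hip.IP against 161.2 to 175.0 in Hip.input.

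Of 11 measured calcium channel regulators and active zone partners, 10 were lower in hippocampal IP and 9 in striatal IP. Stac, 1 of those lower in hippocampal IP, passed the filter through Hip.input alone, which favours that fall. Gem, a small GTPase that binds calcium channel beta subunits and restrains the current, was higher in both. It was 0.722, 0.695, 1.07 and 0.737 in Hip.input and 3.96, 6.16, 5.03 and 6.39 in Hip.IP. In striatum it was 0.278, 1.86, 0.109 and 0.634 in input and 3.63, 5.46, 3.47 and 4.05 in IP. The groups did not overlap, and the differences were 1.81 ± 0.23 (adjusted p = 3.82e-06) and 1.67 ± 0.23 (adjusted p = 1.05e-05). Gem passed the filter only through the IPs, in which it was high, and this favours both rises. All 4 genes of the sodium leak channel complex, Nalcn, Unc79, Unc80 and Fam155a, were lower in IP in both regions, with medians of -2.09 and -1.65. Of the epithelial channel genes only Scnn1a was measured, and it fell by 0.74 ± 0.12 in hippocampal IP and rose by 0.31 ± 0.12 in striatal IP (adjusted p = 3.42e-05 and 0.0275). It passed the filter through Hip.input alone, which favours the hippocampal fall.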

How the data were processed

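The authors deposited 1 table of FPKM per library. Per the submitters' processing notes, bcl2fastq 2.17, STAR, HTSeq and mm10 were used; the counting mode and annotation are not given in the sources used here. The rule took 32 members, of which 2 are not reported here and enter no count of members, while all rows stayed in the fit. The members and lists were chosen with earlier results of these data known. Rows reaching 1 FPKM in 4 or more libraries (13470) were fitted with limma 3.58.1 in R 4.3.3 on log2(FPKM/f + 1), where f is a scaling factor trimmed by 30% of log ratios and 5% of levels. The 16 libraries and 4 groups entered 1 fit (12 residual degrees of freedom, trended robust variance), with Benjamini-Hochberg adjustment and calls under 0.05. The fit was tested on simulated data. Labels pair libraries by animal. After removal of group means, same-animal correlations across genes were 0.308 to 0.526 between IPs, 0.054 to 0.320 between inputs, 0.086 to 0.172 between Hip.input and Hip.IP, and -0.008 to 0.085 in striatum. The main fit has no animal term, so its p-values rest on the spread of libraries around their group means, pooled over the 4 groups. With 1 set of libraries per animal, they speak for 4 animals only. The animal entered as a block in an alternative fit. Depth was estimated from the FPKM step of 1 fragment at GENCODE vM21 lengths, where 99.4% of 2536 low genes were whole within 0.1 fragments in every library; another length model would rescale all depths. Values in every library are given for members among the 6 largest calls per comparison and direction, those called against most members, and those called in the interaction. FPKM dilutes with other RNAs, so a fall is relative to the library. Alternatives changed the scaling, pseudocount, filter, variance model, samples in the fit, block and libraries. Figures used Python 3.11.15, pandas 2.3.3 and matplotlib 3.10.9.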

Additional observations from a re-analysis of the deposited data

Results flagged for a closer look

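In 3 of 92 member and group values tested, the highest or lowest library lay far from the other 3 of its group (a criterion that chance meets in about 1 of 20 groups). Cacna1g was highest in Hip.input of animal 971 (1.23) and in Str.input of animal 977 (0.379). Cacna1i was lowest in Hip.input of animal 974 (3.40).

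The difference between IP and input differed between regions by the interaction test of limma for 2 of 23 members (8.7%, against 13.8% of all genes tested). The value was 0.74 for Cacna1g (adjusted p = 0.00334) and -2.34 for Scn4b (adjusted p = 6.43e-06). Cacna1g was tested only because its Hip.input levels passed the filter, which favours such a value. For Scn4b the value was -0.41 with a pseudocount of 0.1 (adjusted p = 0.511).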

How the results depend on the processing

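No result for a member changed direction past the threshold under any alternative run. Without the scaling factor no member was higher in Hip.IP (0 in place of 1). For the interaction, in place of 1 higher member there were 2 with no filter on low values (Scn7a added), 0 with a filter of 1 FPKM in 8 libraries, where Cacna1g was not tested, 2 without Str.input of animals 971 and 974 (Cacna2d1 added) and 3 without the IPs of animals 974 and 977. In place of 1 lower member there were 2 under quantile normalization, 2 with the animal as a replicate block and 2 without Str.input of animals 971 and 974, Cacna2d2 being added each time, and 0 with a pseudocount of 0.1. With the block, 9 members were higher in Str.IP than in Hip.IP in place of 6, and it changed no other call than those 3 and that of Cacna2d2. Leaving out each animal in turn gave 2 to 6 members higher in Str.IP than in Hip.IP, 4 to 6 higher and 0 to 3 lower in Str.input than in Hip.input, and 0 higher throughout and 1 to 2 lower in the interaction (2 without animal 974). Those fits tested 21 members, without Cacna1g and Scn9a. Leaving out animals 971 and 974 in Str.input, or 974 and 977 in the IPs, was chosen after the data were seen. The shallow striatal inputs limit precision for the low members. Of 7 members below the filter, Scn7a is named from a test, in the fit with no filter.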
